A study of Homo sapiens with 12 samples.

Results

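The nuclear pore complex is the channel through which proteins and messenger RNPs pass between nucleus and cytoplasm, and its building blocks are the nucleoporins. The 31 genes described here are a fixed list of nucleoporins, chosen by name out of 20052 protein-coding genes of the RefSeq gene table. No measured value entered the rule, but earlier results of these data were known when the list was chosen. N4-acetylcytidine (ac4C) is an acetylated form of cytidine found in ribosomal, transfer and messenger RNA, and NAT10 is the enzyme known to place it. In acetylated RNA immunoprecipitation sequencing (acRIP-seq), fragmented RNA is pulled down with an antibody against ac4C and sequenced, and stretches with many fragments are called as peaks. Nucleoporins assemble into an outer and an inner ring, a central channel lined with FG repeats, filaments on the cytoplasmic side, a basket on the nuclear side and membrane anchors, and the genes are grouped here by these places.

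The libraries came from SW620, a human colorectal cancer cell line, in 2 groups of 3 ac4C immunoprecipitations. The control group carried a lentiviral control short hairpin RNA (shControl, genotype label WT) and the other group a hairpin against NAT10 (shNAT10, genotype label NAT10 knockdown). The study made such lines as puromycin-selected stable lines and used more than 1 NAT10 hairpin, and the labels do not say which hairpin these libraries carried or whether the replicates were separate cultures, so p-values measure only the spread between these samples, which may be technical. Each library has its own list of peaks restricted to mRNA, with a position, a strand and a score, and no read counts, so sequencing depth is unknown.

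The lists held 18241, 22619 and 20063 peaks in control libraries 1, 2 and 3, and 28752, 17877 and 19047 peaks in knockdown libraries 1, 2 and 3. Knockdown 1 had the longest list and knockdown 2 the shortest, so the groups overlapped. The NAT10 gene itself held 1, 0 and 2 peaks in the controls and 2, 0 and 1 in the knockdowns, which is no measure of its mRNA level and does not check the knockdown. Of 10 markers of colon epithelium, 7 were marked by peaks in 1 or more libraries and 5 in all 6 (EPCAM, CDH1, KRT8, CDX2 and VIL1), while KRT18, KRT20 and CDX1 held none. None of 5 markers of blood, stroma and endothelium (PTPRC, CD3E, COL1A2, DCN and PECAM1) held a peak in any library. A peak requires that the RNA be present as well as pulled down, and in bulk RNA fewer cells of a type and less RNA per cell cannot be told apart.

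Nucleoporin peaks were frequent over the first bases of the gene. The outermost RefSeq start of the gene span lay under a peak region, which is the union of overlapping peaks of the 6 libraries on one strand, in 17 of the 29 nucleoporin genes with a known strand in the tables (58.6%), against 24.6% of all protein-coding genes with a strand. Among genes with at least 1 peak the shares were 66.7% and 37.8%. The first 30 transcribed bases, read 5′ to 3′ from RefSeq (GRCh38.p14), are shown for genes with a RefSeq start site under a region found in all 6 libraries, outermost or not, and for the starts of RANBP2, NUP54 and NUP35, whose regions were found in part of the libraries. Starts of NUP85, NUP93, NUP107, NUP133 and SEH1L also lay under a region of part of the libraries and are not shown. Their first 30 bases held no match to the pattern marked below. Capitals mark the spaced-cytidine pattern described for ac4C, 4 successive triplets of bases that each begin with C, searched on the transcribed strand only and with overlapping matches joined.
NUP58: agccttgcCTTCGCCGCCGTtggggctgga
NUP62: gattccccgctcgcgactCCCCACCCCCCA
NUP160, upstream start: aaggttcccgcagatagagtctgcctcccc
NUP160, downstream start: gttccgttgggcgtcgCGGCGACGGCGGga
NUP50: gccggcgcgcttgcgcagtagctgaacgcg
NUP88: agttgggccaagatggcggccgccgaggga
NUP98: gcagtcgggccctctgcgcgctgcgcccga
NUP214: gaggtcaactgcgcgccgctggcgctgagg
TPR: cttcggtcgcgggcggtgaggtgctgttgc
SEC13: tggtactgaggaggcctagcagggtgaagg
NDC1: ctcctgtacgccctagactaggggccgcca
RANBP2: acagtggtcCTCCGCCGGCTACGGCGCtgc
NUP54: acttggtctcctgctttcgcgacatggcct
NUP35, downstream start: gtagttgccgacgcaatggcagcctttgca

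Within the first 50 transcribed bases, the median share of G and C was 68% at nucleoporin start sites and 64% at all start sites of protein-coding genes. In the same 50 bases, the spaced-cytidine pattern occurred at 14 of the 37 RefSeq start sites listed for the nucleoporin genes (37.8%). Over protein-coding genes it occurred at 6601 of 22198 start sites (29.7%). The pattern occurred at 5 of the 12 nucleoporin start sites under a region of all 6 libraries and at 2 of the 8 under a region of fewer libraries. NUP160 and NUP98 each gave 2 of these 12 start sites, and both NUP160 sites held the pattern. The remaining start sites of the 37 had no region over their whole first 30 bases, and the pattern occurred among them too. These numbers are too small to tie the pattern to the peaks. NUP62 had the most cytidines among the sequences shown, 18 of 30 bases, and SEC13 the fewest, 4 of 30, and both starts lay under a region of all 6 libraries. A match is a description of the letters and marks no acetylated site.

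Counted over the whole list, 25 of 31 nucleoporin genes (80.6%) held a peak in at least 1 library, against 61.3% of all protein-coding genes. A peak was present in all 6 libraries in 14 of them (45.2%), against 29.8% of all genes. Another 11 genes held peaks in 1 to 5 libraries. The 6 genes with 0 peaks in every library were NUP37 and NUP43 of the outer ring, NUP155 and NUP205 of the inner ring, the membrane protein NDC1, and AAAS, the gene for ALADIN on the cytoplasmic side. For NDC1 the rule of assignment set this value. An NDC1 region at chr1:53838205-53838608 was present in all 6 libraries, with score percentiles within the library of 80.3, 78.6 and 62.6 in the controls and 76.9, 43.8 and 60.4 in the knockdowns, but the midpoints of its peaks lay upstream of the RefSeq start. The same was true of NUP98, in which a peak at chr11:3797400-3797792 with identical ends in all 6 libraries covered the start while its midpoint lay 42 bases upstream of it.

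**Figure D1:**
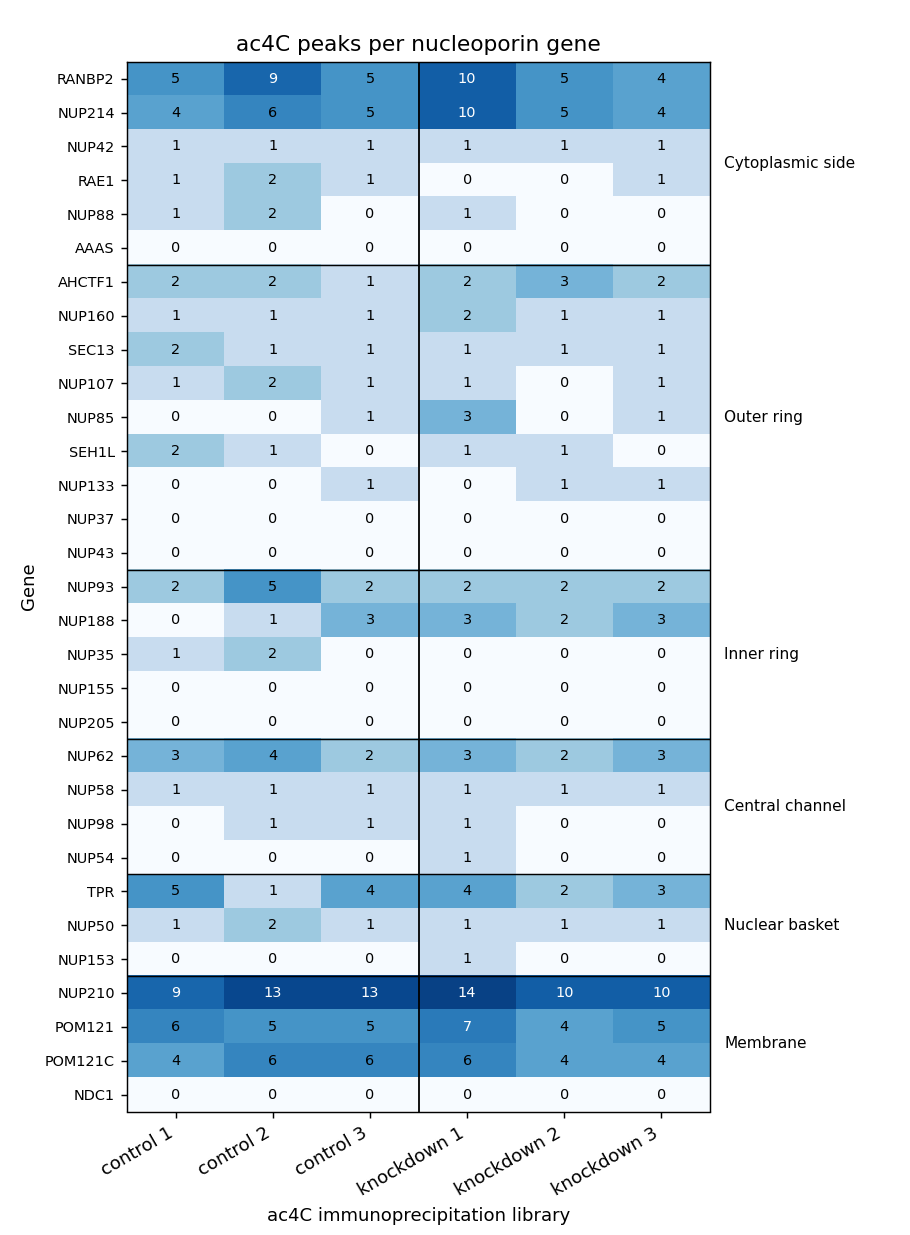
Number of ac4C peaks with their midpoint in each of the 31 nucleoporin genes (rows, grouped by place in the pore) in each of the 6 immunoprecipitation libraries (columns, controls left of the vertical line). Darker blue stands for more peaks. NUP210 has 9 to 14 peaks, and no row has all control values on one side of all knockdown values.

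The membrane nucleoporins carried the most peaks, 131 over the 6 libraries in 3 of 4 genes. NUP210 encodes gp210, a single-pass membrane glycoprotein of the pore, and its 104 kb span held more peaks than any other nucleoporin gene. NUP210 peaks numbered 9, 13 and 13 in the controls and 14, 10 and 10 in the knockdowns (11.7 ± 2.31 and 11.3 ± 2.31, SD, n = 3; two-sided exact permutation p = 1). They fell into 24 regions, of which 4 were found in all 6 libraries. The region at the NUP210 start (chr3:13420060-13420309) had identical ends in every library and score percentiles of 89.5, 94.8 and 93.2 in the controls and 92.7, 87.0 and 93.2 in the knockdowns. Further inside, the regions 22900 and 20529 bases from the start were also identical in the 6 lists. The first of these had percentiles of 65.3, 79.5 and 79.9 in the controls and 74.7, 55.4 and 80.4 in the knockdowns, and the second 70.8, 59.2 and 68.5 against 70.7, 61.8 and 60.1. The last of the shared regions (chr3:13316235-13317781) reached the final base of the gene and varied most among these 4, at 29.1, 6.71 and 58.9 in the controls and 77.2, 54.8 and 7.69 in the knockdowns. The other 20 NUP210 regions were found in 1 to 5 libraries, 3 of them in 2 more control than knockdown libraries and 3 in 2 more knockdown than control libraries. The region at chr3:13373718-13373873, named after its values were seen, was absent from control 1, ranked at 11.4 and 27.6 in the other controls and at 76.6, 57.8 and 77.1 in the knockdowns. POM121 and POM121C, which encode near-identical membrane-anchored nucleoporins, held 6, 5 and 5 against 7, 4 and 5 peaks and 4, 6 and 6 against 6, 4 and 4 peaks. At the POM121 start (chr7:72879365-72879885) every library scored 3100, a value at which 7.61% to 13.7% of a library's peaks stood, close to the top of the scale. The POM121C start region (chr7:75485864-75486271) was lower in every library, at percentiles of 63.8, 70.3 and 79.7 in the controls and 79.2, 60.6 and 57.5 in the knockdowns. Inside both genes lay regions of equal width, of 92, 172 and 216 bases, and reads from copies this similar can be split between them. The 172-base region was present in all 6 libraries in POM121, at percentiles of 5.19, 67.8 and 58.9 in the controls and 63.8, 37.0 and 69.3 in the knockdowns, and in 3 controls and 1 knockdown in POM121C.

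On the cytoplasmic side, the spans of NUP214 and RANBP2 held the most peaks, but only 4 of the 38 in the RANBP2 span lay in no other gene. NUP214, which docks export complexes and mRNPs leaving the pore, held 4, 6 and 5 peaks in the controls and 10, 5 and 4 in the knockdowns (5.00 ± 1.00 and 6.33 ± 3.21; two-sided exact permutation p = 0.9). Knockdown 1, the longest list, had the highest number, and the other libraries of both groups overlapped. Of 10 NUP214 regions, 3 were found in all 6 libraries with identical ends, at the start (chr9:131125561-131125749) and 18931 and 20630 bases downstream of it. The NUP214 start region had percentiles of 65.9, 70.3 and 60.5 in the controls and 80.0, 53.9 and 66.5 in the knockdowns, so knockdown 1 was highest and knockdown 2 lowest. RANBP2 encodes NUP358, the SUMO ligase that forms the cytoplasmic filaments, and it held 5, 9 and 5 peaks in the controls and 10, 5 and 4 in the knockdowns. Its RefSeq span is 1123 kb long and takes in other genes, so that 15 of its 16 regions also lay in CCDC138, SH3RF3, SOWAHC or RGPD5. The region at the start of RANBP2 (chr2:108719481-108719678) was the only one in RANBP2 alone, and it was found in controls 1 and 2 and knockdowns 1 and 2.

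The other cytoplasmic members had 0 to 2 peaks in a library. NUP42, a partner of the export factor GLE1, held 1 peak in each library, at chr7:23185070-23185298, which lay 3136 bases into the gene and had identical ends throughout. Its percentiles were 96.0, 94.8 and 83.6 in the controls and 84.0, 84.6 and 83.7 in the knockdowns, with control 3 beside the knockdowns (difference of means -7.34; two-sided exact permutation p = 0.4). NUP88, which anchors NUP214, had a start region (chr17:5419354-5420160) in all 6 libraries that varied widely in rank. The NUP88 percentiles were 99.9, 51.0 and 28.9 in the controls and 69.2, 94.0 and 93.2 in the knockdowns, and the groups overlapped (60.0 ± 36.3 and 85.5 ± 14.1; two-sided exact permutation p = 0.4). RAE1, an mRNA export factor that binds NUP98, held 1, 2 and 1 peaks in the controls and 0, 0 and 1 in the knockdowns (1.33 ± 0.577 and 0.333 ± 0.577; two-sided exact permutation p = 0.3). The RAE1 start region (chr20:57351010-57351422) was found in all 3 controls and in knockdown 1 (two-sided Fisher's exact test p = 0.4), and the peak of knockdown 3 lay at another place, chr20:57351577-57351998. In control 3 and knockdown 1 the midpoint of the start peak lay upstream of the RefSeq start, so the peak numbers leave it out. By overlap with the span, RAE1 held 1, 2 and 2 peaks in the controls and 1, 0 and 1 in the knockdowns.

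Of the 3 nuclear basket genes, TPR and NUP50 had a start region in all 6 libraries. TPR, the main coiled-coil scaffold of the basket, held 5, 1 and 4 peaks in the controls and 4, 2 and 3 in the knockdowns. Its start region (chr1:186374878-186375325) had identical ends in all 6 libraries and scored 1715, 3123 and 1823 in the controls and 3100 in each knockdown. The corresponding percentiles were 86.5, 99.7 and 80.6 against 92.7, 94.0 and 93.2, so control 2 lay above all knockdowns and the other controls below them (two-sided exact permutation p = 0.5). NUP50, a cofactor of importin-mediated transport, held 1, 2 and 1 peaks against 1, 1 and 1, and its start region (chr22:45163841-45164296) was identical in the 6 lists, at percentiles of 42.0, 75.6 and 57.5 against 60.3, 77.3 and 68.1. NUP153, which ties the basket to the nuclear ring, held a single peak, in knockdown 1, 59035 bases into the gene.

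In the outer ring, formed by the Y complex, 7 of 9 genes held a peak and 3 in all 6 libraries. AHCTF1 encodes ELYS, which seeds pore assembly on chromatin, and held 2, 2 and 1 peaks in the controls and 2, 3 and 2 in the knockdowns. The AHCTF1 start region (chr1:246931578-246931978) scored 3100 in all libraries but knockdown 3, where it scored 2133. NUP160 held 1, 1 and 1 against 2, 1 and 1 peaks, with a start region (chr11:47848219-47848555) at percentiles of 83.0, 89.9 and 65.6 in the controls and 92.7, 83.0 and 78.3 in the knockdowns. SEC13, which also coats COPII vesicles, held 2, 1 and 1 against 1, 1 and 1 peaks. NUP85 held 0, 0 and 1 peaks in the controls and 3, 0 and 1 in the knockdowns, NUP107 held 1, 2 and 1 against 1, 0 and 1, SEH1L held 2, 1 and 0 against 1, 1 and 0, and NUP133 held 0, 0 and 1 against 0, 1 and 1. None of the 17 outer ring regions differed by 2 or more libraries between the groups.

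The inner ring held 30 peaks over the 6 libraries, and 3 of its 5 genes held a peak. NUP93, which links the inner ring to the central channel, held 2, 5 and 2 peaks in the controls and 2, 2 and 2 in the knockdowns. The 1 NUP93 region found in all 6 libraries (chr16:56748234-56748426) lay 18201 bases into the gene, with percentiles of 44.6, 65.7 and 30.6 in the controls and 54.8, 35.7 and 31.6 in the knockdowns. NUP188, the large scaffold partner of NUP93, held 0, 1 and 3 peaks in the controls and 3, 2 and 3 in the knockdowns (1.33 ± 1.53 and 2.67 ± 0.577; two-sided exact permutation p = 0.4). Control 3 was as high as the highest knockdowns. Of the NUP188 regions, those at chr9:128956350-128956434 and chr9:129006502-129007096 were both found in control 3 and all 3 knockdowns, and the second reached the last base of the gene. NUP35, which binds the pore membrane, held 1, 2 and 0 peaks in the controls and 0 in every knockdown (two-sided exact permutation p = 0.4). The NUP35 region of controls 1 and 2 (chr2:183124355-183124497) covered the downstream RefSeq start shown above, at percentiles of 39.7 and 47.2.

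In the central channel, whose FG-repeat proteins form the permeability barrier, NUP62 held 3, 4 and 2 peaks in the controls and 3, 2 and 3 in the knockdowns, and NUP58 held 1 in each library. Every NUP62 region also lay in the span of IL4I1 on the same strand, so the lists do not assign these peaks to NUP62 alone. The NUP62 start region (chr19:49927694-49929504) ranked high in all libraries, at percentiles of 96.0, 94.8 and 86.9 in the controls and 92.7, 88.1 and 93.2 in the knockdowns. It was a union of 10 distinct intervals, with ends from chr19:49928097 to the RefSeq start at chr19:49929504. Each percentile is that of the library's highest peak anywhere in the union, so a peak over the start itself is not shown for every library. The NUP58 start region (chr13:25301524-25301880) sat near the middle, at 31.7, 56.8 and 61.9 against 50.1, 52.1 and 58.7. NUP98, which has a soluble pool as well as a place in the pore, held 0, 1 and 1 against 1, 0 and 0 peaks beside the shared start peak whose midpoint lay outside. NUP54 held 1 peak by midpoint, in knockdown 1, but the region at its start (chr4:76148308-76148515) was found in control 2 and all 3 knockdowns (two-sided Fisher's exact test p = 0.4).

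NAT10 knockdown left the number of nucleoporin peaks within the spread of the libraries. The peaks in the 31 genes numbered 52, 68 and 56 in the controls and 76, 46 and 49 in the knockdowns (58.7 ± 8.33 and 57.0 ± 16.5, SD, n = 3). Knockdown 1 was the highest and the other knockdowns the lowest, so the groups overlapped, and without knockdown 1 the difference of means went from -1.67 to -11.2 peaks. As a share of the library's list, nucleoporin peaks made up 0.285%, 0.301% and 0.279% in the controls and 0.264%, 0.257% and 0.257% in the knockdowns (0.288 ± 0.0111 and 0.260 ± 0.00407). The groups did not overlap on this scale, which was not tested because it sums over chosen genes. With every list shortened to its 17877 top-scored peaks the shares were 0.280%, 0.285% and 0.291% against 0.274%, 0.257% and 0.252%, and the groups again did not overlap. Among the 50% of each list that scored highest, the shares were 0.208%, 0.274% and 0.259% in the controls and 0.257%, 0.257% and 0.242% in the knockdowns, so the groups overlapped, control 1 was the lowest library, and the mean was 0.00486 percentage points higher in the knockdowns.

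**Figure D2:**
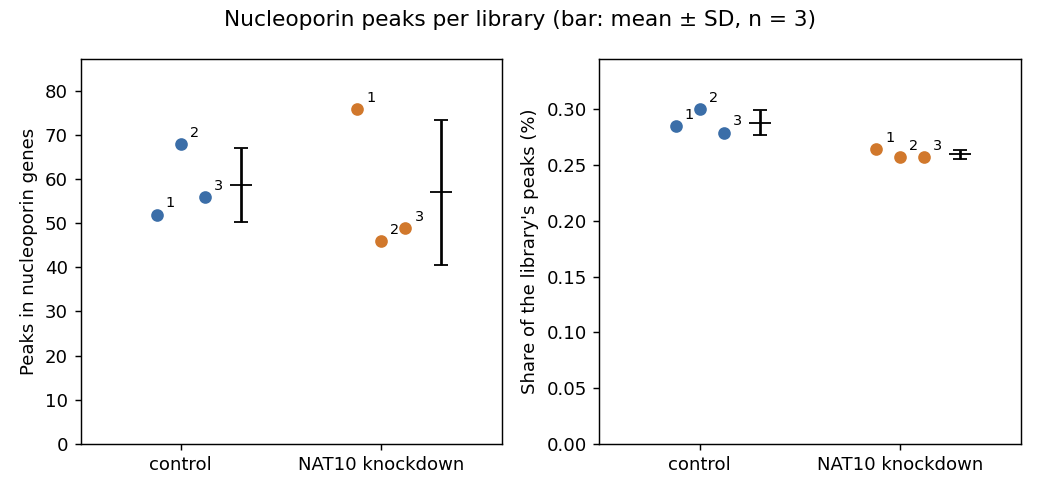
Peaks in the 31 nucleoporin genes per library (left, number of peaks) and as a share of all peaks of the library (right, percent), with replicate numbers beside the points and the mean ± SD of 3 libraries as bars. Knockdown 1 stands above the rest on the left, with 76 peaks, and the 3 knockdown shares lie below the 3 control shares on the right.

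No single nucleoporin gene separated the groups by its peak numbers. For 0 of the 25 genes with a peak were all libraries of one group above all libraries of the other, where 0.659% of the 12291 protein-coding genes with a peak did so on the control side and 1.59% on the knockdown side, 2.25% in all. The smallest unadjusted p among them was 0.3 (RAE1), 3 libraries against 3 cannot give less than 0.1, and all 25 Benjamini-Hochberg adjusted p-values over the 12291 genes were 1. RAE1 did separate when equal numbers of highest-scored peaks were taken from each library, with 1, 1 and 1 peaks in the controls and 0, 0 and 0 in the knockdowns. Leaving out control 3 separated NUP35 and NUP188 in opposite directions, and leaving out knockdown 3 separated RAE1. In both RAE1 cases the 0 of knockdown 1 came from the midpoint rule, which left out its peak at the RAE1 start.

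Of 119 nucleoporin regions, 0 were found in all controls and no knockdown, a rule that 0.339% of all 40677 regions met, and 1 was found in all knockdowns and no control, a rule that 0.828% of all regions met. That 1 region (chr2:109398590-109398943) lay in the RANBP2 span but also in SH3RF3, 679284 bases from the RANBP2 start, with percentiles of 35.8, 20.1 and 18.1 in the knockdowns (exact p = 0.1 by Fisher's two-sided test, which cannot go lower here). With only peaks in the span of a single gene, 0 regions met the rule. A difference of at least 2 libraries was seen in 10 nucleoporin regions on the control side, where 4.04% of all regions had it, and in 7 on the knockdown side, where 5.97% did. Besides the regions of NUP35, RAE1, NUP188 and NUP54 above, these lay in NUP88, NUP93, NUP210, POM121 and POM121C. Outside the RANBP2 span, the two-sided Fisher's exact p of each of these regions was 0.4. Without control 3 the number of regions found in every library of a single group went from 1 to 9, 5 on the control side and 4 on the knockdown side. Such a count rises partly by construction, since 2 libraries against 3 separate more easily. The share of all regions that met this looser rule is not given here, so the 9 regions have no background.

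Where all 6 libraries had a peak, its rank within the library did not separate the groups either. Scores cannot be compared directly between libraries, so each peak was given its percentile among all peaks of its library. For 0 of 23 such nucleoporin regions did the percentiles of the groups not overlap, where 4% of all 8902 regions found in every library lay apart with the controls higher and 7.11% with the knockdowns higher. The mean percentile was lower in the knockdowns in 12 regions and higher in 11. The 12 include the POM121 start, which scored 3100 in every library. Its difference of -1.36 reflects only how many peaks of each library tie at 3100, and other regions at 3100 carry the same offset. The largest difference of means was that of the NUP88 start, 25.5 percentiles higher in the knockdowns. The next largest was in the RANBP2 span (chr2:109794685-109795076, also in RGPD5), at 59.8, 73.0 and 47.2 in the controls and 33.9, 51.3 and 26.3 in the knockdowns, with an unadjusted two-sided exact permutation p of 0.2 and an adjusted p of 0.669.

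**Figure D3:**
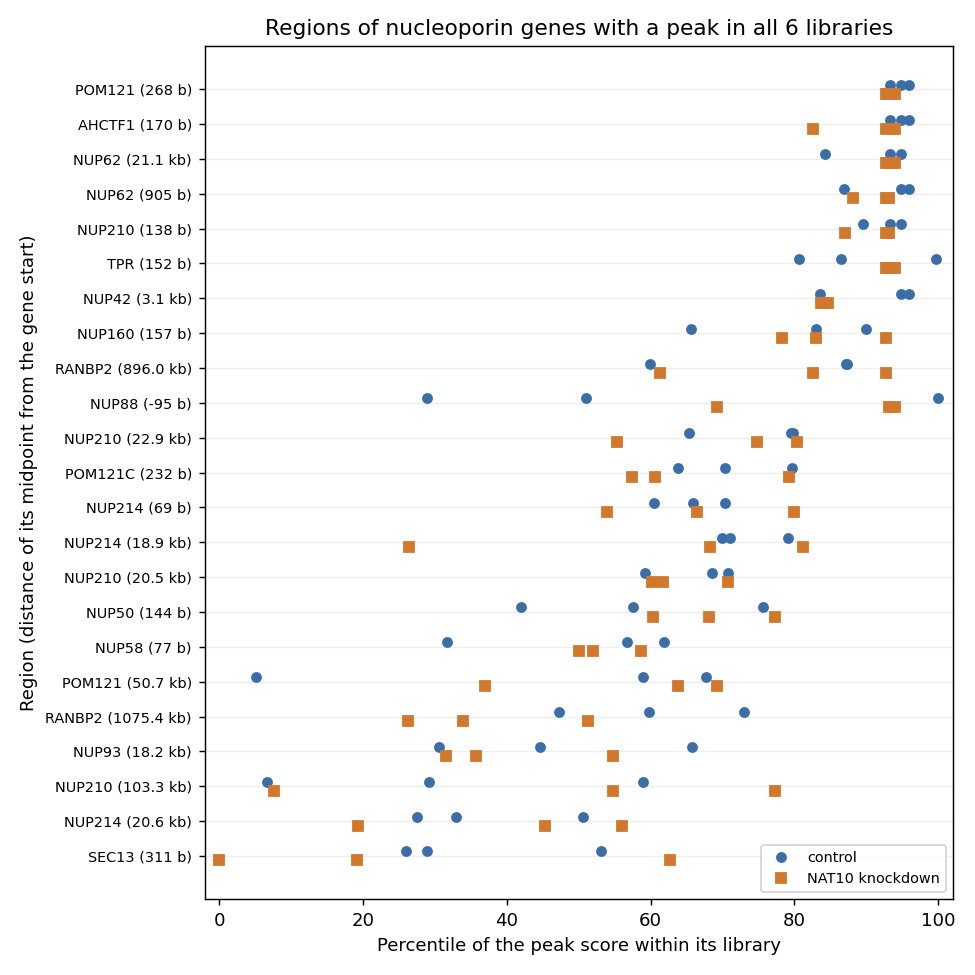
Percentile of the peak score within its library (x axis, 0 to 100) for the 23 nucleoporin regions found in all 6 libraries (rows, with the distance of the region's midpoint from the RefSeq gene start; b, bases), 3 control libraries as circles and 3 knockdown libraries as squares. Circles and squares overlap in every row, and the start regions of POM121, AHCTF1, NUP210 and TPR sit at the high end.

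Position in the gene went with how often a region was found. A region that held the RefSeq gene start, or whose midpoint lay within 500 bases of it, was counted as a start region. Of 19 start regions, 12 were found in all 6 libraries (63.2%) and 1 in a single library. Of the other 100 regions, 11 were found in all 6 (11%) and 41 in a single library. Over all protein-coding genes with a strand, 3892 had the outermost start under a region, and 1800 had it under a region of all 6 libraries. For the nucleoporin genes these numbers were 17 and 9. Of all regions in protein-coding genes, 21.9% were found in all 6 libraries. Starts were thus often found in all 6 libraries over all genes too, and the contrast is not particular to nucleoporins. Start regions were also wider, with a median width of 357 against 159 bases. This contrast is partly set by the rule, since a wide region more easily holds the start and a region is a union over libraries. Start regions ranked higher too, with median percentiles of 74.5, 73.0 and 61.9 in the controls and 69.2, 77.3 and 67.3 in the knockdowns. The other regions had medians of 33.6, 31.6 and 39.8 in the controls and 41.7, 40.8 and 41.5 in the knockdowns. The order of start and other regions was the same in each of the 6 libraries. Leaving out RANBP2, 52% of the nucleoporin regions lay in the first of 3 equal parts of the gene span in the direction of transcription, 17% in the middle part and 31% in the last part, against 37.3%, 24.3% and 38.4% over all protein-coding genes with a strand.

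**Figure D4:**
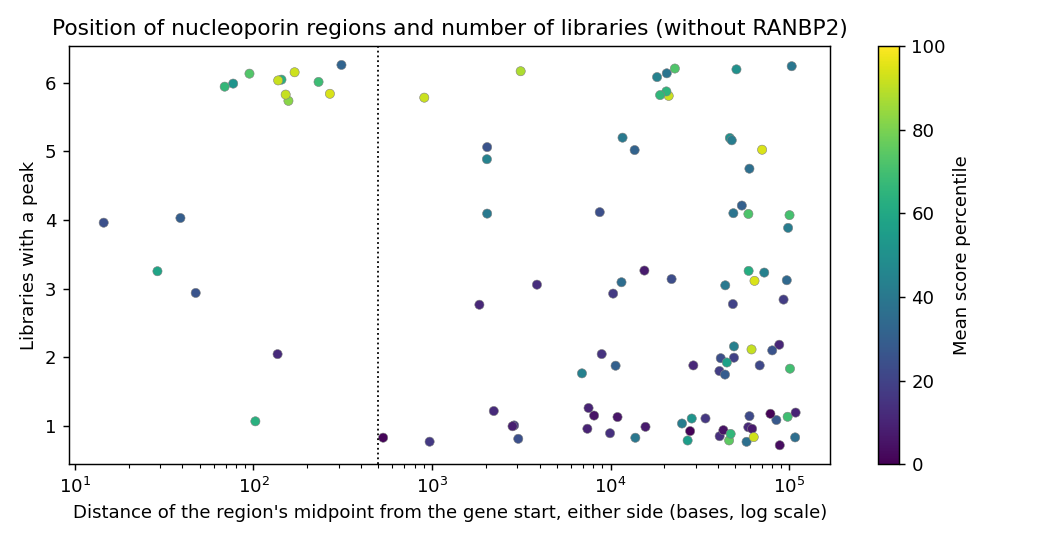
Number of libraries with a peak (y axis, points spread vertically within each number to show overlaps) against the distance of the region's midpoint from the RefSeq gene start in bases (x axis, log scale, upstream and downstream together) for the nucleoporin regions outside RANBP2, coloured by mean score percentile. The dotted line marks 500 bases, left of which most points sit at 6 libraries, and the regions found in 1 library lie almost all to its right.

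Single-library regions made up 42 of the 119 (35.3%), against 38.7% over all genes. Of these, 18 were found only in knockdown 1 and 10 only in control 2, which had the longest lists of their groups, while the other libraries had 2 to 5 each. Among the 77 nucleoporin regions found in 2 or more libraries, 54 had the same start and end in each library that held them (70.1%, against 60.9% over all genes). Among the 23 found in all 6 libraries the order was reversed, with 15 such regions (65.2%, against 69.3% over all genes). Identical ends were seen within and across the groups, as at the starts of POM121, AHCTF1, TPR and NUP50.

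The receptors and regulators that use the pore gave a second list of 40 genes of nuclear transport, among them the importins, exportins and the Ran system. Of these, 37 held a peak and 25 held one in all 6 libraries. Their 123 regions included 0 on the control side and 2 on the knockdown side by the rule of all libraries against none, where the background is 0.339% and 0.828%. RANGAP1, which activates the GTPase of Ran and is bound to RANBP2 at the cytoplasmic filaments, held 7, 9 and 9 peaks in the controls and 14, 10 and 11 in the knockdowns. It was the 1 transport gene whose peak numbers did not overlap between the groups, a pattern met by 1.59% of all genes with a peak on that side, and it was named after its values were seen. RAN itself held 0 peaks in every library, and XPO1, the main exportin, held 1 in each.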

How the data were processed

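Peak lists of 6 acRIP-seq immunoprecipitation libraries from SW620 cells were used, 3 control and 3 NAT10 knockdown, with groups and replicate numbers taken from the titles. The input libraries were not analysed here. The authors fragmented the RNA, immunoprecipitated it with an anti-ac4C antibody and deposited, per library, peaks restricted to mRNA with a score, whose scale is not given and which starts at 50 in these files. The peak names are those of MACS, the build named in the submitters' processing notes is GRCh38, and the aligner and peak caller settings are not given in the sources used here. Without counts, depth is unknown and no interval is given.

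The members and lists were chosen with earlier results of these data known. A peak was assigned to every RefSeq (GRCh38.p14) protein-coding gene whose span held its midpoint on the same strand. The strand came from the RefSeq promoter table, which held 29 of the 31 genes. For AHCTF1, NUP43 and 4210 protein-coding genes in all, without a strand there, both strands were accepted, and the AHCTF1 peaks were all on the minus strand. Peaks overlapping by at least 1 base on a strand were merged into regions. Scores were compared only as mid-rank percentiles within a library, and equal scores at 3100 share a percentile set by how many peaks have it. Genes were compared by two-sided exact permutation tests, regions by two-sided Fisher's exact tests, with Benjamini-Hochberg adjustment over all genes or all shared regions and a threshold of 0.05, which 3 libraries against 3 cannot reach. Named genes were those with the 5 highest mean peak numbers, with no peak, with a region differing by at least 2 libraries, or with a region of identical ends in all 6 libraries, and the others were added as values. Alternatives were the highest-scoring 50% of each list, 17877 highest-scored peaks per library, overlap in place of midpoint, 50% of a region covered, genes with near-identical copies left out, a replicate block and each library left out. Peaks in the span of a single gene and lists without RANBP2 were alternatives added after seeing the data. Exon and coding positions and the sequence of whole regions, which had been planned, were not analysed here because no genome sequence or exon annotation was used. The code was checked on simulated lists. Python 3.11.15, numpy 2.4.6, pandas 2.3.3, scipy 1.17.1 and matplotlib 3.10.9 were used.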

Additional observations from a re-analysis of the deposited data

How the results depend on the processing

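The difference in nucleoporin peaks per library (-1.67 peaks, knockdown minus control) ranged from -11.2 to 3.83 when each library was left out in turn, so its sign was not stable. It was -11.2 without knockdown 1, a move larger than the SD of the controls (8.33) and smaller than that of the knockdowns (16.5), which includes that library. The difference in their share of all peaks ranged from -0.0332 to -0.0225 percentage points with a library left out, was -0.0242 with equal numbers of peaks and -0.0261 by overlap, and was 0.00486 among the 50% of each list that scored highest. The number of regions present throughout a single group and absent from the opposite group was 1. It was 0 with equal numbers of peaks, with peaks in the span of a single gene, without RANBP2, and without POM121, POM121C and RANBP2, and 17 when a difference of 2 libraries sufficed. Among the 50% that scored highest it was again 1, but another region (NUP210, chr3:13373718-13373873). With a library left out it ranged from 1 to 9, highest without control 3. The number of genes separated by their peak numbers went from 0 to 1 with equal numbers of peaks and ranged from 0 to 2 with a library left out, and the number of shared regions separated by percentile from 0 to 5, highest without control 3. These counts rise partly by construction, since 2 libraries against 3 separate more easily. The cause of the other changes was not tested.

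Whether the replicate numbers mark pairs is not settled. The deviations from the group means of same-numbered libraries correlated at 0.0495, 0.0172 and 0.0311 over regions. For differently numbered libraries the correlations ran from -0.0340 to 0.0106, so the same-numbered ones were the highest, but all were small. With the replicate block the difference stayed at -1.67 peaks, and the sign-flip test with the block, which cannot give less than 0.25, changed no call for any gene. Depth is unknown, no input signal was used, and RNA abundance and acetylation cannot be told apart.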
